A study of Homo sapiens with 9 samples.

Results

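EGR1, EGR2, EGR3, IER2, IER3, ETV4, ETV5, ETS1, ETS2 and MYC are 10 genes that answer to growth factors, and their mRNA levels are described here in HaCaT keratinocytes, an immortalized human skin cell line. The genes were taken by name from the 16199 genes listed in at least 1 library. All 10 were listed in each of the 9 libraries, and all 10 were among the 12394 genes that passed the filter on low counts. The untreated cells were kept in serum-free medium, according to the sample labels, and the other cells received either epidermal growth factor (EGF, 10 nM) or bleogen pB1 (1 µM), a cystine-rich plant miniprotein that the study examines as an agonist of the EGF receptor, for 24 h after reaching confluence. Every group had 3 libraries of polyadenylated RNA from the same cell line of wild-type genotype. Nothing in the labels says whether the replicates were separate cultures, so p-values measure the spread between these libraries only. Treated cells were sampled at a single time, 24 h, and the titles of the untreated samples give no time. HaCaT cells are 1 aneuploid line.

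Most of these genes belong to the early transcriptional answer to a growth factor. EGF binds its receptor tyrosine kinase, RAS and the RAF-MEK-ERK kinase cascade are switched on, and ERK phosphorylates ETS-domain partners of the serum response factor (SRF) at CArG boxes in immediate-early promoters. EGR1, EGR2 and EGR3 are zinc-finger transcription factors that are made within minutes of stimulation and lost soon afterwards, and IER2 and IER3 are immediate-early genes whose products act in the nucleus and in cell survival. ETV4 and ETV5 belong to the PEA3 group of ETS factors, their transcription follows ERK activity and is held down by the repressor CIC, and their proteins are degraded through COP1 and DET1. ETS1 and ETS2 are ETS factors that ERK phosphorylates directly, and MYC is the bHLH-zipper activator of growth genes that binds DNA with MAX.

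The libraries held 20288417 to 21320994 expected counts. As the floor of detection, for counting error only, 3 counts were taken, or 0.141 to 0.148 CPM (counts divided by library size). This floor is uncorrected, whereas all other CPM values were corrected with TMM factors of 0.963 to 1.02. The keratinocyte markers KRT5 and KRT14 averaged 3506 and 1008 FPKM (fragments per unit of gene length and of depth) in untreated cells. Of 22 marker genes of fibroblasts, melanocytes, endothelial and immune cells, only MITF reached a mean of 1 FPKM in untreated cells, at 1.37, and their summed level was 4.90 to 5.92 FPKM in untreated, 2.61 to 2.82 in EGF-treated and 3.97 to 5.27 in bleogen pB1-treated libraries. As bulk RNA was measured, fewer cells with a transcript and less of it per cell cannot be told apart. A gene was called differentially expressed (DEG) at an adjusted p of at most 0.05 and a log2 fold change (log2FC) of at least 0.5 in either direction, tested with edgeR's quasi-likelihood test and Benjamini-Hochberg adjustment over all 12394 genes.

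The promoters of EGR1, EGR2 and IER2 are shown for the CArG box, the SRF element through which the immediate-early answer is usually read. Only exact matches within the windows were searched, and whether the motifs bear on the changes with EGF was not tested. The windows run from 250 bases before to 50 bases after a RefSeq start site in GRCh38.p14 and are written 5′ to 3′ on the strand of the gene. Capitals mark the CArG box and the core of the cyclic AMP response element (CRE), TGACG, each on either strand.
EGR1, chr5:138465229-138465528, + strand: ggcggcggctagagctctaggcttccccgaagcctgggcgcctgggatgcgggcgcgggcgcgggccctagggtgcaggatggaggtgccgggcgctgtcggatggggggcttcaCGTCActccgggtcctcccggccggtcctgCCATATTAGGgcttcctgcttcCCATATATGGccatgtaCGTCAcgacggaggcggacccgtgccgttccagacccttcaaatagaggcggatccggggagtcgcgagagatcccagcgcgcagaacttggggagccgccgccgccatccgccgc
EGR2, chr10:62816317-62816616, - strand: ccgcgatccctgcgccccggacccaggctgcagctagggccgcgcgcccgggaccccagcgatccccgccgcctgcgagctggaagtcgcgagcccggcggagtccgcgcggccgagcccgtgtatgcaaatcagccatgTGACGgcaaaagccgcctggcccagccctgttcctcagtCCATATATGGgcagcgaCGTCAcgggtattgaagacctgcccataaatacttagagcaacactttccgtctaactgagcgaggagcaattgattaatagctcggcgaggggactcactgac
IER2, chr19:13150161-13150460, + strand: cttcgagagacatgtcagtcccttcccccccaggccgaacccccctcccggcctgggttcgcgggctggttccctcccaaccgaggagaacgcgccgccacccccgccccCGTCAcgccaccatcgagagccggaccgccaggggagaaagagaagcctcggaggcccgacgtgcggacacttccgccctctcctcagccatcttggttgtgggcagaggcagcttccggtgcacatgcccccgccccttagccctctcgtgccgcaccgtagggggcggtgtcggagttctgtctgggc
The EGR1 window holds 2 CArG boxes, at positions -105 to -96 and -83 to -74 from the start site, flanked by 2 CRE cores. The EGR2 window, the third of 3 RefSeq starts of that gene, holds 1 CArG box at -71 to -62, also between 2 CRE cores, and the other EGR2 windows hold none. The IER2 window holds no CArG box but 1 CRE core at -140 to -136, 1 ETS core (CCGGAA, found here on the other strand) and 4 Sp1 boxes (GGGCGG on either strand). No CArG box lay in either ETS2 window. Among 35116 promoter windows of the same length in the table, 454 (1.29%) hold at least 1 CArG box and 11 (0.0313%) hold at least 2, whereas 24.6% hold a CRE core, 17.2% an ETS core and 45.0% an Sp1 box. An E-box (CACGTG), present in 7.26% of windows, was found in the second EGR2 window only, where it overlaps an Sp1 box by 1 base. The table gave no window for the other 6 genes.

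**Figure D1:**
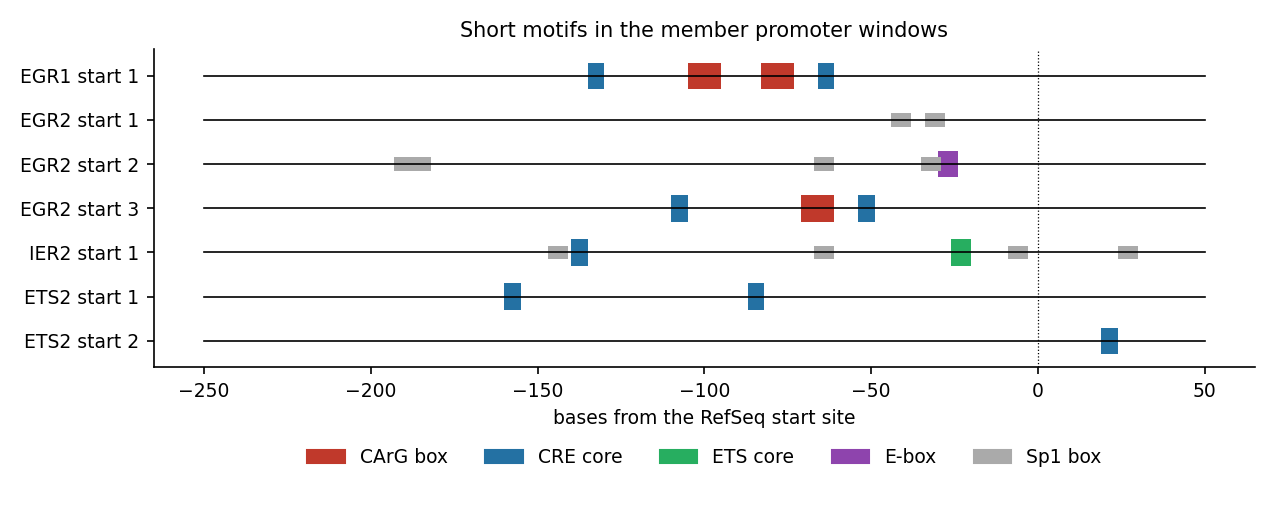
Positions of motifs in the 7 promoter windows of EGR1, EGR2, IER2 and ETS2, with the distance in bases from the RefSeq start site on the x axis and 1 line per window. Boxes mark the CArG box (red), CRE core (blue), ETS core (green), E-box (purple) and Sp1 box (grey, lower height), and CArG boxes are seen in the EGR1 window and in the third EGR2 window only.

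EGF changed 7 of the 10 genes after 24 h. IER3 (10.3-fold), ETV4 (3.04-fold), ETV5 (2.80-fold), ETS1 (2.27-fold) and IER2 (1.76-fold) were upregulated, EGR2 and EGR3 were downregulated to 0.330 and 0.313 of the untreated level, and EGR1, ETS2 and MYC were not DEGs. None of the 10 was called with bleogen pB1. EGF altered much of the transcriptome, with 4578 DEGs, or 36.9% of genes tested. Of all genes, 15.1% were called higher, against 5 of 10 here, and 21.8% lower, against 2 of 10. The median log2FC was 0.64 over the 10 genes and -0.01 over all genes, and with bleogen pB1 it was -0.025 and -0.001. With upper-quartile scaling, the median of all genes moved to -0.12 and the higher calls fell from 1875 of 4578 to 1396 of 4617, but the same 7 of the 10 genes were called. In CPM, the EGF and untreated groups did not overlap for 9 of the 10 genes, MYC being the exception, and such separation was seen for 70.4% of all genes.

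**Figure D2:**
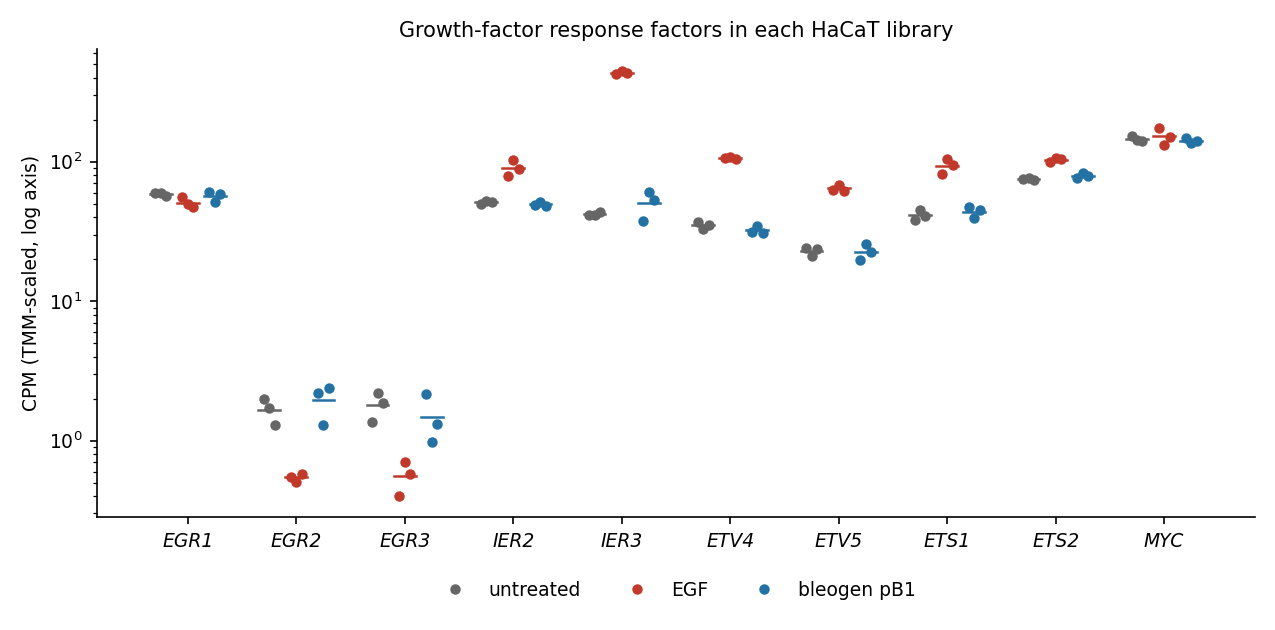
CPM of the 10 genes (log axis) in the 3 untreated (grey), 3 EGF-treated (red) and 3 bleogen pB1-treated (blue) libraries, with 1 point per library and a line at the mean of each group. The EGF points of IER3, ETV4, ETV5, ETS1, IER2 and ETS2 lie above, and those of EGR1, EGR2 and EGR3 below, all untreated points, while the blue and grey points overlap for every gene.

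IER3, which encodes a short-lived stress-inducible protein that restrains apoptosis and ERK dephosphorylation, showed the largest change. It lies on chr6:30743199-30744548, on the minus strand (GRCh38, GENCODE release 44). Its CPM values were 41.8, 41.7 and 43.4 in untreated cells and 424.9, 450.7 and 430.4 after EGF. The untreated libraries were close together, and all EGF values lay about 10-fold above them. The log2FC was 3.36 ± 0.13 (SE), with a 95% interval of 3.09 to 3.64 and an adjusted p of 5.4e-10 by edgeR's quasi-likelihood test, which ranked 32 of all genes by p. Per length, IER3 was already the highest of the 10 genes in untreated cells (36.2 ± 1.04 FPKM, SD, n = 3), and it reached 354.3 ± 10.6 FPKM after EGF, which moved its mean percentile among listed genes from 84.3 to 98.8.

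IER2 (chr19:13150411-13154911, plus strand), a nuclear regulator of transcription, had 49.5, 52.5 and 51.3 CPM in untreated cells and 79.4, 102.4 and 88.6 CPM after EGF. The lowest EGF value was well above the highest untreated value, although EGF libraries varied more, with a coefficient of variation of 12.8% against 2.96%. The log2FC was 0.82 ± 0.08, with an edgeR adjusted p of 3.1e-06. The paralogs IER5 and IER5L did not pass the call rule, with log2FC values of 0.13 and -0.02. IER3 made up 32.2% of the summed FPKM of the 4 IER genes in untreated cells and 79.1% after EGF, whereas the share of IER2 went from 22.8% to 9.60%, as the sum itself went from 112.1 ± 2.51 to 447.9 ± 16.3 FPKM.

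ETV4 (chr17:43527844-43579620, minus strand) had 37.0, 32.7 and 35.2 CPM in untreated cells and 105.6, 108.8 and 103.9 CPM after EGF. The EGF libraries were tightly grouped (coefficient of variation 2.33%), and the log2FC of 1.60 ± 0.07 had an edgeR adjusted p of 1.8e-09. ETV5 (chr3:186046314-186110318, minus strand) had 23.9, 21.2 and 23.7 CPM in untreated cells and 63.0, 68.3 and 61.7 CPM after EGF. Its log2FC was 1.49 ± 0.09, with an edgeR adjusted p of 4.3e-08, and the 95% interval of 1.29 to 1.69 contains the estimate for ETV4. Exons of ETV4 overlap those of DHX8 on the opposite strand, and exons of ETV5 overlap those of DGKG on the same strand, and whether the counting used the strand is not given in the sources used here. DHX8 was not a DEG (log2FC 0.26), whereas DGKG rose with a log2FC of 1.75 from a mean of 99.7 to 327.7 counts, a smaller gain in counts than that of ETV5, which went from 474.7 to 1299. Exons of EGR2, EGR3, IER2, IER3, ETS2 and MYC also overlap those of annotated noncoding genes, none of which was found by name in any library. Those at EGR2, EGR3, IER2 and ETS2 have only an Ensembl identifier as a name. They could not be matched to the gene symbols of the libraries, so whether they were expressed is not known. How reads were divided between any of these overlapping genes, ETV5 and DGKG included, was not tested.

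ETS1 (chr11:128458761-128587558, minus strand), a factor linked to cell migration and matrix protease genes, had 38.1, 45.0 and 40.8 CPM in untreated cells and 82.2, 105.2 and 94.0 CPM after EGF. No EGF value came near the untreated range, and the log2FC was 1.18 ± 0.10 with an edgeR adjusted p of 5.5e-07. ETS2 (chr21:38805183-38824955, plus strand), the closest relative of ETS1, had 74.8, 76.5 and 74.1 CPM in untreated cells and 99.5, 107.1 and 104.4 CPM after EGF. Its groups did not overlap and the edgeR adjusted p was 1.4e-05, but the log2FC of 0.46 ± 0.06 (95% interval 0.34 to 0.59) was under the fold limit of the call rule.

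EGR1 (chr5:138465479-138469303, plus strand), the prototype of the immediate-early transcription factors, was not raised at 24 h. It had 59.4, 59.5 and 56.6 CPM in untreated cells and 55.6, 49.7 and 47.3 CPM after EGF. All EGF values were below all untreated values, by a small margin, and the log2FC of -0.20 ± 0.08 had an edgeR adjusted p of 0.039 but was under the fold limit. EGR2 (chr10:62811996-62819167, minus strand), known for its role in myelinating Schwann cells, had 1.98, 1.72 and 1.29 CPM in untreated cells and 0.550, 0.504 and 0.578 CPM after EGF. These levels rest on 27 to 41 counts per untreated library and 10 to 12 counts per EGF library. The fall was larger than the spread between libraries, with a log2FC of -1.60 ± 0.32 and an edgeR adjusted p of 0.00073. EGR3, on chromosome 8, had 1.35, 2.21 and 1.86 CPM in untreated cells and 0.40, 0.705 and 0.578 CPM after EGF, from 28 to 45 and 8 to 14 counts. Its log2FC was -1.68 ± 0.36, with an edgeR adjusted p of 0.0012. At these depths the 95% intervals of both folds were wide, from -2.30 to -0.90 for EGR2 and from -2.46 to -0.89 for EGR3. Both calls were lost when FPKM values were analysed on a log2(FPKM + 1) scale, which compresses such low levels (log2FC -0.425 and -0.353). Per length, EGR1 exceeded EGR2 and EGR3 in every group, with 19.3 ± 0.45, 0.597 ± 0.13 and 0.453 ± 0.10 FPKM in untreated cells. EGR4 had at most 1 count in any library. The EGR corepressors NAB1 and NAB2 did not pass the call rule (log2FC -0.14 and 0.36).

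MYC, on chromosome 8, had 152.6, 142.4 and 140.0 CPM in untreated cells and 175.3, 132.0 and 149.7 CPM after EGF. The EGF values lay on both sides of the untreated range. The log2FC was 0.07 ± 0.09, with a 95% interval of -0.12 to 0.26 and an edgeR adjusted p of 0.48, and its sign turned with upper-quartile scaling (-0.03). MYCN was not listed in any library. MYCL fell from 2.23 to 0.310 FPKM, with a log2FC of -2.87 and an edgeR adjusted p of 1.7e-05, so that MYC made up 99.1% of the summed FPKM of the family after EGF and 93.7% without it. For the 9 genes whose groups did not overlap, the exact two-sided permutation test on CPM gave p = 0.1, the smallest that 3 against 3 libraries allow, and for MYC it gave p = 0.8.

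With bleogen pB1, none of the 10 genes was a DEG. Over all genes there were 183 DEGs, or 1.48% of those tested, a count that rose to 436 without bleogen pB1 replicate 1 and fell to 102, 109 and 102 without untreated replicate 1, bleogen pB1 replicate 2 and bleogen pB1 replicate 3. Of the 10 genes, none had an unadjusted edgeR p under 0.05, and DESeq2 called none. However, DESeq2 gave no adjusted p for EGR2 and EGR3, so it could not call these genes. In CPM, treated and untreated groups overlapped for all 10 genes, whereas they did not overlap for 29.1% of all genes. IER3 had the smallest unadjusted p, with 37.8, 60.1 and 53.5 CPM after bleogen pB1, so that replicate 1 was below and replicates 2 and 3 were above all untreated values. Its log2FC was 0.26 ± 0.12, with a 95% interval of -0.01 to 0.52 and an edgeR adjusted p of 0.24. Single libraries decided this value: the log2FC was 0.43 with an edgeR adjusted p of 0.0031, still under the fold limit, without bleogen pB1 replicate 1, and 0.11 with an adjusted p of 0.74 without replicate 2. ETV4 had 31.3, 34.7 and 31.0 CPM, with a log2FC of -0.11 and an interval of -0.26 to 0.04. ETV5 had 19.9, 25.5 and 22.5 CPM (log2FC -0.02, interval -0.23 to 0.19). ETS1 had 47.1, 39.2 and 45.0 CPM (log2FC 0.08, interval -0.13 to 0.30), and ETS2 had 76.3, 82.9 and 79.5 CPM (log2FC 0.08, interval -0.04 to 0.21). MYC had 147.2, 136.0 and 141.0 CPM (log2FC -0.04, interval -0.22 to 0.15), IER2 49.2, 51.5 and 47.9 CPM (interval -0.23 to 0.14) and EGR1 60.8, 51.7 and 59.1 CPM (interval -0.20 to 0.14). For these 7 genes, all but IER3 and the low EGR2 and EGR3, the interval excludes a log2 change of 0.5 in either direction. EGR2 had 2.20, 1.30 and 2.39 CPM and EGR3 had 2.15, 0.975 and 1.31 CPM. Their intervals, -0.34 to 0.81 and -0.96 to 0.38, are too wide to exclude a change of that size.

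**Figure D3:**
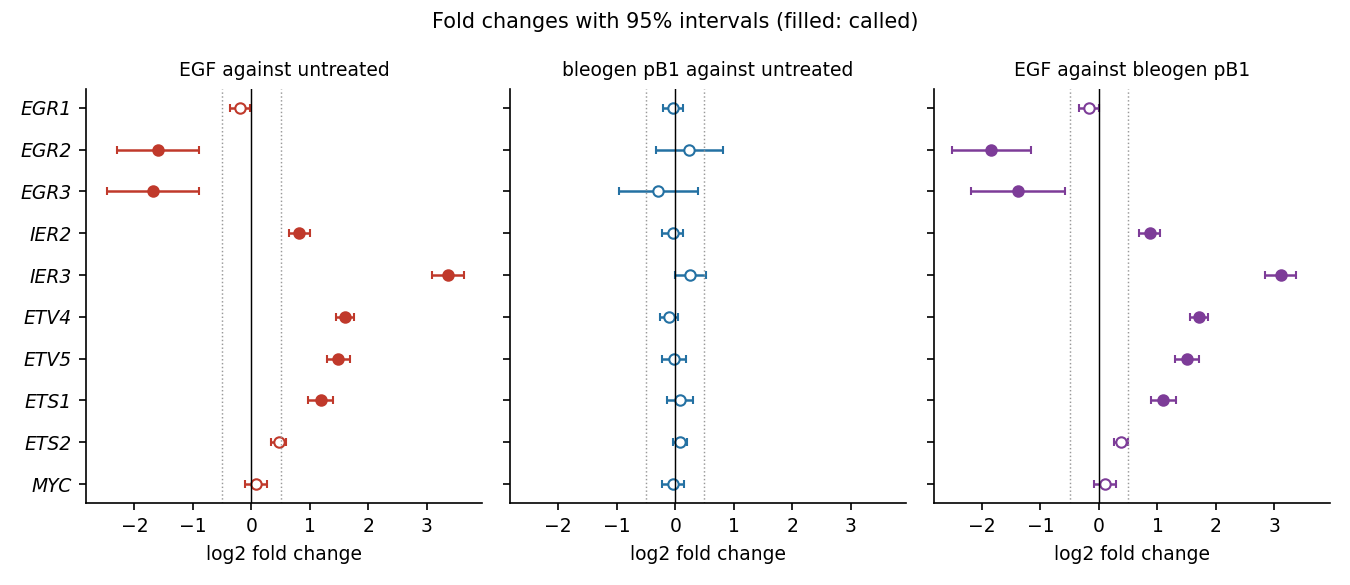
Log2 fold changes of the 10 genes (points) with 95% intervals (bars) for EGF against untreated, bleogen pB1 against untreated and EGF against bleogen pB1. Filled points are DEGs and dotted lines mark the fold limit of 0.5, and 7 points are filled in the outer panels and none in the bleogen pB1 panel.

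The direct comparison of EGF with bleogen pB1 tested whether the responses differed. It shares the EGF libraries with the first comparison, and the 2 ligands were given at different concentrations (10 nM and 1 µM), so that potency and dose cannot be told apart. The same 7 genes were called, against 28.8% of all genes: 5 were higher with EGF (10.8% of all genes) and 2 lower (18% of all genes), and the groups did not overlap for 8 of 10 (62.4% of all genes). The log2FC of EGF over bleogen pB1 was 3.11 ± 0.12 for IER3, 1.71 ± 0.07 for ETV4, 1.51 ± 0.09 for ETV5, 1.10 ± 0.10 for ETS1 and 0.86 ± 0.08 for IER2. It was -1.84 ± 0.32 for EGR2 and -1.39 ± 0.37 for EGR3, the least certain of the 7, with an edgeR adjusted p of 0.0062. ETS2 differed by 0.38, under the fold limit, and the intervals for EGR1 (-0.34 to 0.00164) and MYC (-0.08 to 0.29) included no difference.

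The order of the 10 genes by FPKM changed with EGF. In untreated cells IER3 (36.2) was followed by MYC (32.9), IER2 (25.6), ETS2 (20.4), EGR1 (19.3), ETV4 (16.0), ETS1 (8.06), ETV5 (5.74), EGR2 (0.597) and EGR3 (0.453), and only the ranges of EGR2 and EGR3 overlapped among neighbours. The order was the same after bleogen pB1, where the ranges of IER3 (43.99) and MYC (32.5) also overlapped. After EGF, ETV4 (46.4 FPKM) stood next to IER3, ahead of IER2 (43.1) and MYC (33.1), although the ranges of ETV4 and IER2 and those of IER2 and MYC overlapped. ETS2 (26.97), ETS1 (17.6), EGR1 (16.0) and ETV5 (15.4) followed, the last 3 with overlapping ranges from neighbour to neighbour.

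The composition of the ETS family changed more than its summed level. Of 28 ETS genes, 25 were listed, and their FPKM values summed to 312.6 ± 7.25 in untreated cells, 327.1 ± 10.1 after EGF and 294.9 ± 7.24 after bleogen pB1. The 3 ranges of the sum did not overlap. ETV4, ETV5, ETS1 and ETS2 made up 15.9 to 16.3% of this sum in the untreated libraries and 32.1 to 32.9% in the EGF libraries, and the ranges were far apart. After bleogen pB1 the share was 16.5 to 18.5%, above the untreated range, with a lower sum. In CPM, treated and untreated groups did not overlap for 70.4% of all genes with EGF and 29.1% with bleogen pB1. Neither the sum nor the share was tested for a difference. Among the other 24 ETS genes, 16 were tested with EGF: 3 rose, 3 fell and 10 were not called, a share of calls close to the 36.9% of all genes, with a median log2FC of 0.08, which turned to -0.03 with upper-quartile scaling. ETV1, the remaining PEA3 factor, rose from 1.38 to 2.90 FPKM (log2FC 1.12), and ELK3, a partner of SRF, rose by 0.73. FLI1 rose by 0.63 at a low level of 0.987 FPKM. ELF3, an epithelial factor tied to keratinocyte differentiation, fell from 18.6 to 2.52 FPKM (log2FC -2.83, edgeR adjusted p 5.1e-09), and ETV7 (-2.02) and ETV6 (-0.74) fell as well. No ETS gene was called with bleogen pB1, where ELF4 had the largest difference among those with an adjusted p under 0.05 (log2FC -0.46).

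**Figure D4:**
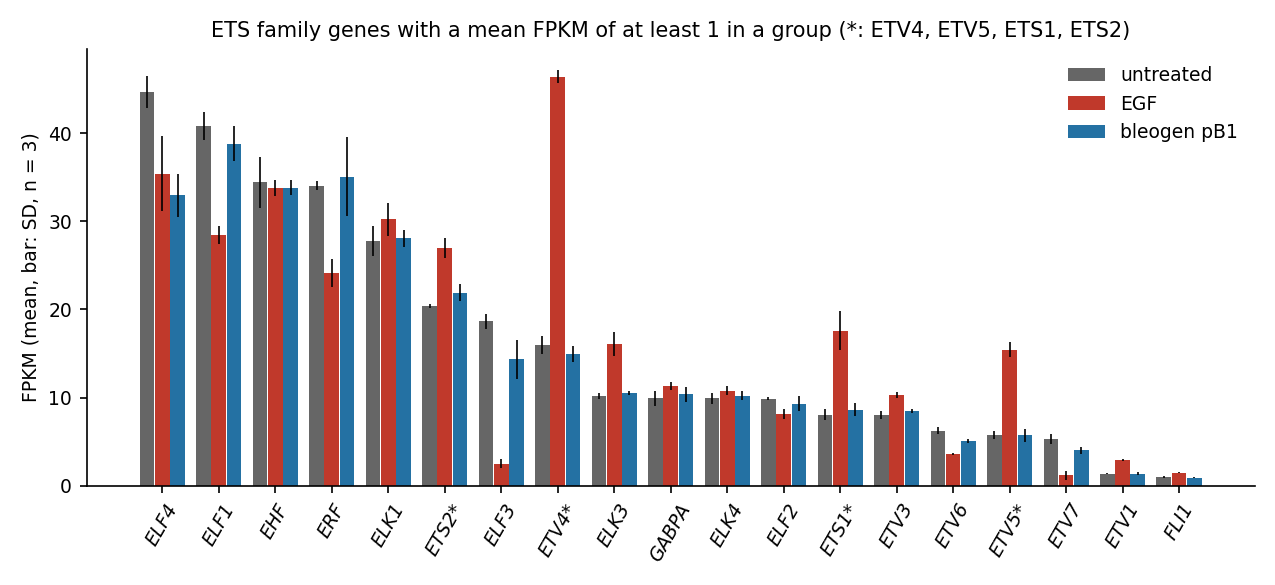
Mean FPKM (bars, linear axis from 0) with SD (lines, n = 3) of ETS family genes with a mean of at least 1 FPKM in a group, in untreated (grey), EGF-treated (red) and bleogen pB1-treated (blue) cells, ordered by the untreated level. Asterisks mark ETV4, ETV5, ETS1 and ETS2, whose red bars exceed the grey bars, and ELF3 shows the opposite, from 18.6 to 2.52 FPKM.

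MYC and its dimer partner MAX (log2FC 0.32) were not called. Of 11 tested genes among the MYC paralogs and the MAX network, the set of factors that pair with MAX or MLX, 2 rose and 6 fell with EGF (15.1% and 21.8% of all genes), with a median log2FC of -0.97. MXD1, a repressor that competes with MYC for MAX, rose from 2.95 to 8.39 FPKM (log2FC 1.57, edgeR adjusted p 3.8e-08), and MLX rose by 0.87. The related repressors MXD4 (log2FC -1.995), MXI1 (-1.61) and MXD3 (-1.27) fell, together with the glucose-sensing factors MLXIP (-0.97) and MLXIPL (-1.87, at no more than 0.160 FPKM) and MYCL. MNT and MGA were not called. With bleogen pB1, MLXIP alone was called, at -0.66 with an edgeR adjusted p of 0.00081. Of 12 textbook targets of MYC, 6 rose with EGF and 1 fell (15.1% and 21.8% of all genes), with a median of 0.53: ODC1 (0.91), LDHA (0.89), NOP56 (0.65), NME1 (0.61), NCL (0.59) and NPM1 (0.58) rose, and TFRC fell (-0.86). NCL and NPM1 were no longer called with upper-quartile scaling. None of the 12 was called with bleogen pB1 (median 0.19).

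Of 14 upstream regulators and turnover factors, 1 rose, 4 fell and 9 were not called with EGF, a share near that of all genes. The gene MAP2K1, which encodes the kinase MEK1, rose (log2FC 0.75), and MRTFA (-0.66), MRTFB (-0.52), MAPK3 (-0.63) and DET1 (-0.72) fell. SRF (0.40) and the ETV4 and ETV5 repressor CIC (-0.40) were under the fold limit, although CIC was called with upper-quartile scaling, and COP1 was at -0.07. The median of the 14 was -0.18, and none was called with bleogen pB1. Of 8 genes of a transcript score of MAPK activity, left after ETV4 and ETV5 were set aside, 4 rose and 1 fell with EGF (15.1% and 21.8% of all genes), with a median log2FC of 0.97. DUSP6 (2.07), DUSP4 (1.66) and SPRY4 (2.24), which encode feedback inhibitors of ERK signalling, and PHLDA1 (1.81) rose, the ephrin receptor gene EPHA4 fell (-2.22), and CCND1, SPRY2 and EPHA2 were between 0.21 and 0.28. None of these was called with bleogen pB1 (median -0.09), where DUSP6 was at -0.28 with an edgeR adjusted p of 0.035.

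Other immediate-early genes moved in both directions. Of 20 tested, 8 rose, 3 fell and 9 were not called with EGF (15.1% of all genes were called higher and 21.8% lower), with a median log2FC of 0.30. TRIB1, which encodes an adaptor of the COP1 ubiquitin ligase, rose from 3.59 to 20.5 FPKM (log2FC 2.54), SGK1 rose by 2.28, MAFF by 1.02, KLF10 by 0.99 and the mRNA-decay factor ZFP36 by 0.86, and CSRNP1, KLF2 and KLF4 also rose. SGK1 and KLF2 were at low levels in untreated cells, 0.563 and 0.413 FPKM. BTG2 (-1.47), ZFP36L2 (-1.06) and CCN1 (-0.73) fell. NR4A1, NR4A2 and NR4A3, which like EGR1 are typical of the first hour after stimulation, were not called (log2FC 0.21, -0.07 and 0.39). NR4A3 was at only 0.103 FPKM in untreated cells. With bleogen pB1, CCN1 alone was called (-0.52, edgeR adjusted p 0.0075).

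Of 12 genes known as targets of ETS factors or EGR1, 11 were tested. With EGF, 6 rose and 1 fell (15.1% and 21.8% of all genes), with a median log2FC of 0.78. The collagenase gene MMP1 (3.03), MMP9 (2.44), the urokinase receptor gene PLAUR (2.35), VEGFA (2.13), the tissue factor gene F3 (1.03) and SERPINB5 (0.78) rose, and MMP10 fell from 6.93 to 3.34 FPKM (-0.99). MMP9 was at a low level of 0.36 FPKM in untreated cells. PLAU, at 73.3 and 73.4 FPKM, PDGFA and TGFB1 were among the genes not called. This was the only one of the 9 lists with genes called higher with bleogen pB1: MMP1 (log2FC 1.12, edgeR adjusted p 0.0068), MMP10 (0.70, 0.0019) and PLAUR (0.64, 0.0029), with a median of 0.08. Of all 12394 genes tested, 1.48% were called in either direction and 27 genes were called higher. The list was chosen with earlier results of these data known, and whether such targets respond as a group was not tested. MMP10 was thus higher with bleogen pB1 and lower with EGF, and the direct comparison gave a log2FC of -1.69 with an edgeR adjusted p of 8.2e-08. No gene of the 9 lists that was called with EGF or bleogen pB1 changed sign under RLE, upper-quartile or no scaling factors.

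The genes whose profiles were most like those of the 7 called genes were found by the root-mean-square difference of log2 CPM, taken relative to the untreated mean, over the 9 libraries, among genes with at least 50 counts on average. Closest to IER3 were FOSL1 (0.169) and the EGF-family ligand gene EREG (0.231), with EGF log2FC values of 3.50 and 3.25. MXD1 (0.0612) and DUSP4 (0.115) were closest to ETV4, and STK17A (0.0741) and MXD1 (0.0758) to ETV5. SELENOS (0.0601) and CEBPB (0.0605) were closest to IER2, and TNFRSF25 (0.119) and KIFC3 (0.123) to ETS1. For the sparsely counted EGR2 and EGR3 the closest genes were SCGB1A1 (0.185) and DBNDD1 (0.185), and LOC100129484 (0.186) and FBP1 (0.213). These distances are descriptions over libraries that share treatment and depth.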

How the data were processed

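Total RNA of 9 HaCaT libraries was enriched for polyadenylated RNA, made into dUTP-marked libraries and sequenced at BGI. The authors mapped reads to GRCh38.p12, and the program and version that made the values are not given in the sources used here. Per gene and library, the authors deposited an expected count, which is an unscaled estimate, and an FPKM value, which accounts for gene length and depth, beside the length itself. A gene absent from a file was counted as 0. Samples were grouped from their titles.

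After rounding of the expected counts, a single model of the 9 libraries was fitted in edgeR 4.0.16 (R 4.3.3), with filterByExpr, TMM factors, glmQLFit, glmQLFTest and 6 residual df. The SE was derived from the log2FC and its F statistic, as |log2FC| over the root of F. Alternatives used DESeq2 1.42.0 (the tool of the study), limma 3.58.1 on log2(FPKM + 1) or log2(FPKM + 0.1), other scaling factors, filters and fold limits, a replicate block, and each library left out. The fits were also run on simulated data, in which far fewer genes changed than were called with EGF. All changed genes there had higher counts than EGR2 and EGR3, so the simulation does not cover these cases. Single genes were compared by exact permutation tests of CPM. The 10 genes, the lists and the rule for naming genes (the 10 genes, up to 4 called genes with the smallest adjusted p per list and any uncalled gene a sentence needs, and the 2 nearest profiles of each called gene) were chosen with earlier results of these data known. Further list genes, DHX8 and DGKG were named after their values were seen. A gene of the lists is not reported here by name and stays in the fits and counts. Family shares and orders use FPKM. Coordinates are from GENCODE release 44 on GRCh38 and promoters from RefSeq on GRCh38.p14. Tables were handled with Python 3.11.15 and pandas 2.3.3.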

Additional observations from a re-analysis of the deposited data

How the results depend on the processing

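Across the alternatives, 5 to 9 of the 10 genes were called for EGF against untreated, 5 to 8 for EGF against bleogen pB1 and 0 for bleogen pB1 against untreated in every setting run. EGR3 dropped out with at least 10 counts required in every library (6 called), EGR2 and EGR3 with limma on log2(FPKM + 1) in the comparison of EGF with untreated cells (5 called), and IER2 with a log2FC limit of 1 (6 called). EGR1 and ETS2 were added with adjusted p alone (9 called). DESeq2, the other scaling factors, glmTreat and each left-out library gave 7, 0 and 7 calls. With bleogen pB1 against untreated, DESeq2 gave no adjusted p for EGR2 and EGR3. The sign of the log2 fold change turned only for genes that were not called. For MYC with EGF against untreated it was -0.0338 with upper-quartile factors and ranged from -0.0396 to 0.173 over the left-out libraries, and against bleogen pB1 it ranged from -0.00129 to 0.211. For bleogen pB1 against untreated, the left-out libraries gave ranges of -0.0658 to 0.0022 for MYC, -0.117 to 0.0667 for ETV5 and -0.0772 to 0.0327 for EGR1. The largest moves in that comparison were those of IER3 (0.108 to 0.427, the latter without bleogen pB1 replicate 1), EGR2 (0.0694 to 0.46) and EGR3 (-0.658 to -0.0668), none of which became a call. With the replicate number as a block, 7, 0 and 7 genes were called. Same-numbered libraries deviated together only weakly (correlations -0.0304 to 0.207), and nothing in the sources pairs them. With 3 libraries per group, the counts of EGR2 and EGR3, 8 to 51 per library, limit the precision of their folds.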
